A study of Sparus aurata with 9 samples.

Results

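In gilthead sea bream liver after 24 h with gold nanoparticles, 114 of 5191 measured transcripts met a rule for rising at 50 µg/L only. Their mean at 50 µg/L was a median of 1.75-fold above the mean of the 6 pools of unexposed fish or fish at 0.5 µg/L. They were chosen by their measured levels. In every one, the 3 pools at 50 µg/L lay above all 6 other pools, the mean at 50 µg/L was at least 0.5 on the log2 scale above the mean of those 6, and the 0.5 µg/L pools did not all lie below all controls. Their rise at 50 µg/L is therefore a description and was not tested. The samples were livers of juvenile fish (Sparus aurata, about 50 g), 9 per group, with the RNA of 3 fish combined in each pool, so that n = 3 pools per group. The groups were controls in artificial saltwater with no particles (0 µg/L), fish with gold nanoparticles (AuNP) at 0.5 µg/L, a concentration predicted for the environment, and fish at 50 µg/L, a spiking concentration. The fish of a condition shared duplicate tanks, and the labels do not say which pool came from which tank. Each pool was read on 1 one-colour array, and a level here is the log2 signal relative to the 75th percentile of its array, so that 0 is the 75th percentile itself.

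Gold nanoparticles are small metal particles that fish can take up from water, and particles or metal that reach the blood are largely cleared by the liver. The fish liver makes most plasma proteins, stores lipid and glycogen, handles foreign compounds and holds immune cells, so its RNA mixes several cell types. In such bulk RNA a higher level can mean more cells of a type or more RNA per cell, and these cannot be told apart. The files name each transcript only by a contig or a cDNA clone, and 0 of the 15156 names matched the 32006 genes of the RefSeq table used here. Roles, pathways, liver markers and markers of other cell types were therefore not analysed, and neither were probe sequences. Several names may stand for the same gene, so the 114 are names on the array and not 114 independent genes.

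By name, 70 of the members were contigs assembled from several cDNA reads (61.4%, beside 55.1% of all 5191), and 44 were single clones. They came from many naming series of the array. The contigs named Contig gave 33 of 1526 and those named Seabream 36 of 1289. Among the clone series cDN01 to cDN14 the share ran from 1 of 180 in cDN11 (0.556%) to 7 of 159 in cDN02 (4.40%), beside 2.20% of all transcripts.

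Of the 5191 transcripts, 235 (4.53%) had every 50 µg/L pool above all 6 other pools, and 301 (5.80%) had every 50 µg/L pool below them. Of the 235, 157 also passed the difference of 0.5, and 43 of these had the 0.5 µg/L pools all below the controls and so were not members. Another 70 were ordered as the members are, without that low level at 0.5 µg/L, and had a smaller difference. Just inside the limit, the contig Seabream_2006-01-03-CL296Contig1 had a difference of 0.503. Its controls stood at 0.98, 0.70 and 0.89, its 0.5 µg/L pools at 0.72, 1.14 and 0.83, and its 50 µg/L pools at 1.38, 1.26 and 1.5. Just outside, the clone cDN10P0003G12.F.ab1 had 0.497, from controls of 0.48, 0.32 and 0.03, 0.5 µg/L pools of -0.12, 0.13 and -0.12, and 50 µg/L pools of 0.64, 0.49 and 0.72. Both had all 50 µg/L pools on top, by 0.12 in the contig and by 0.015 in the clone.

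**Figure D1:**
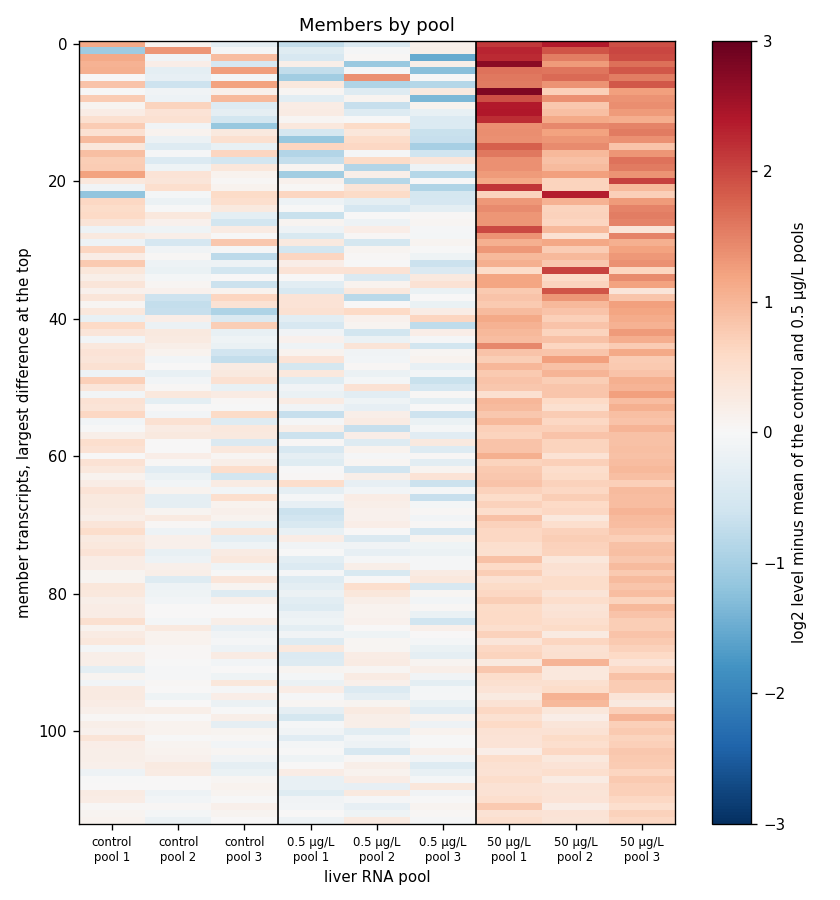
Each row is 1 of the 114 members, ordered by its difference between the 50 µg/L pools and the other 6, and each column is 1 of the 9 pools. Colour gives the log2 level minus the mean of the control and 0.5 µg/L pools. The right 3 columns are above 0 in every row because the rule asked for it, pool 3 at 50 µg/L has the highest median (0.93), and control pool 1 (0.25) is the warmest of the other columns.

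The size of the rise varied among the members. The difference between 50 µg/L and the other 6 pools ran from 0.50 to 2.14 on the log2 scale, with a median of 0.81, where the median over all 5191 transcripts was -0.11. It was under 0.75 in 48 members, 0.75 to 1 in 28, and 1 or more (at least doubled) in 38. Against the controls alone the median difference was 0.68 (0.41 to 1.99), and against the 0.5 µg/L pools alone it was 0.90 (0.48 to 2.56). The distance between the lowest pool at 50 µg/L and the highest of the other 6 was narrow, with a median of 0.17 and a range of 0.004 to 0.80, beside a median SD between pools of a group of 0.30. The order of pools in the median member thus held by less than the spread within a group.

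In controls the members' spots were on the whole dimmer than those of all 5191 transcripts, although probes differ in brightness for reasons other than abundance. Their median signal in controls was 0.16, beside 0.69 over all transcripts, and ranked at a median percentile of 34.5. At 0.5 µg/L the median was 0.02, beside 0.70. At 50 µg/L, where the rule asked them to be high, it was 0.99, beside 0.63. Of the 1206 transcripts with a control signal of 2 or more, 10 (0.829%) were members, against 45 of the 1515 below 0 (2.97%). Dimness also decided which transcripts were measured at all. A probe counted as detected on an array where its signal was well above background, and for a probe with 2 spots 1 such spot was enough. It was used if the 3 arrays of some group all detected it. By this filter, 24 members (21.1%) passed only through the 50 µg/L arrays, as did 85 of all 5191 (1.64%). Those 24 had to be brighter at 50 µg/L to be used, and the remaining 90 were also used through another group. Of transcripts that passed only through the 50 µg/L arrays 28.2% were members, against 1.76% of the others. The counts of dim signals above include the 24, and control levels also entered the rule. Dimness without the 24 was not computed, so nothing further is read from it.

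The members fell into 4 sets by how well the other groups were measured. In 26 members more than 1 probe was used and each was detected on all 9 arrays. Another 28 had 1 such probe. In 16 members, no array of some other group detected at least 1 used probe, and the remaining 44 lay between. The 16 dim members had the widest differences, with a median of 1.24 (0.80 to 2.14), where the 26 had 0.68 (0.50 to 1.60), the 28 had 0.67 (0.51 to 1.70) and the 44 had 0.86 (0.53 to 1.92). Of the 16, 13 had passed the filter only through the 50 µg/L arrays, as had 11 of the 44 and 0 of the 26 and of the 28. The sets were themselves defined by detection, and the part of the filter in the wider difference was not tested. Unused dim probes of the whole array also leaned upwards at 50 µg/L (median difference 0.16), and the part of that was not tested either.

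Among the 26 best measured members, the contig Seabream_2006-01-03-CL1722Contig1 had the largest difference, 1.60. Its log2 level was 5.85, 5.60 and 5.78 in control pools 1 to 3. The 0.5 µg/L pools had 4.79, 7.20 and 5.83, and the 50 µg/L pools 7.42, 7.54 and 7.38. The 50 µg/L pools lay close together (7.45 ± 0.08, SD, n = 3) and so did the controls (5.75 ± 0.13), while the 0.5 µg/L pools spread over more than the whole distance between them, and their pool 2 fell short of the lowest 50 µg/L pool by 0.18. Its 3 probes had differences of 1.62, 1.58 and 1.61.

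The contig Contig2768, second among these 26, showed the opposite distribution of spread. Its controls stood at 1.93, 1.84 and 2.11, its 0.5 µg/L pools at 2.00, 1.57 and 2.25, and its 50 µg/L pools at 4.74, 2.66 and 3.18. Controls (1.96 ± 0.14, SD, n = 3) and 0.5 µg/L pools (1.94 ± 0.35) overlapped, and pool 1 at 50 µg/L was far above the others of its group (3.53 ± 1.08). Its 3 probes had differences of 1.55, 1.58 and 1.60.

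Among the 28 members with a single well measured probe, Contig396 had the largest difference, 1.70. The controls had 3.43, 2.08 and 3.62, the 0.5 µg/L pools 1.63, 2.33 and 1.12, and the 50 µg/L pools 3.99, 3.98 and 4.23. Here 2 control pools lay nearer to the 50 µg/L pools than to the 0.5 µg/L pools, and only control pool 2, below 0.5 µg/L pool 2, kept the contig among the members. The 50 µg/L mean was 4.07 ± 0.14, the control mean 3.05 ± 0.84 and the 0.5 µg/L mean 1.69 ± 0.61 (SD, n = 3). Its other 2 probes were too dim to be used and differed by 0.49 each, and with all 3 averaged the difference was 0.89.

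The contig Seabream_2006-01-03-CL3355Contig1, with 1 probe on the array, had control levels of 0.62, 1.22 and 0.15, 0.5 µg/L levels of 0.76, -0.15 and 0.64, and 50 µg/L levels of 2.91, 1.35 and 1.94. Pool 2 at 50 µg/L lay 0.13 above control pool 2, and pool 1 lay well above both. The difference of 1.52 compares a 50 µg/L mean of 2.06 ± 0.79 with a control mean of 0.66 ± 0.53 and a 0.5 µg/L mean of 0.42 ± 0.49 (SD, n = 3).

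**Figure D2:**
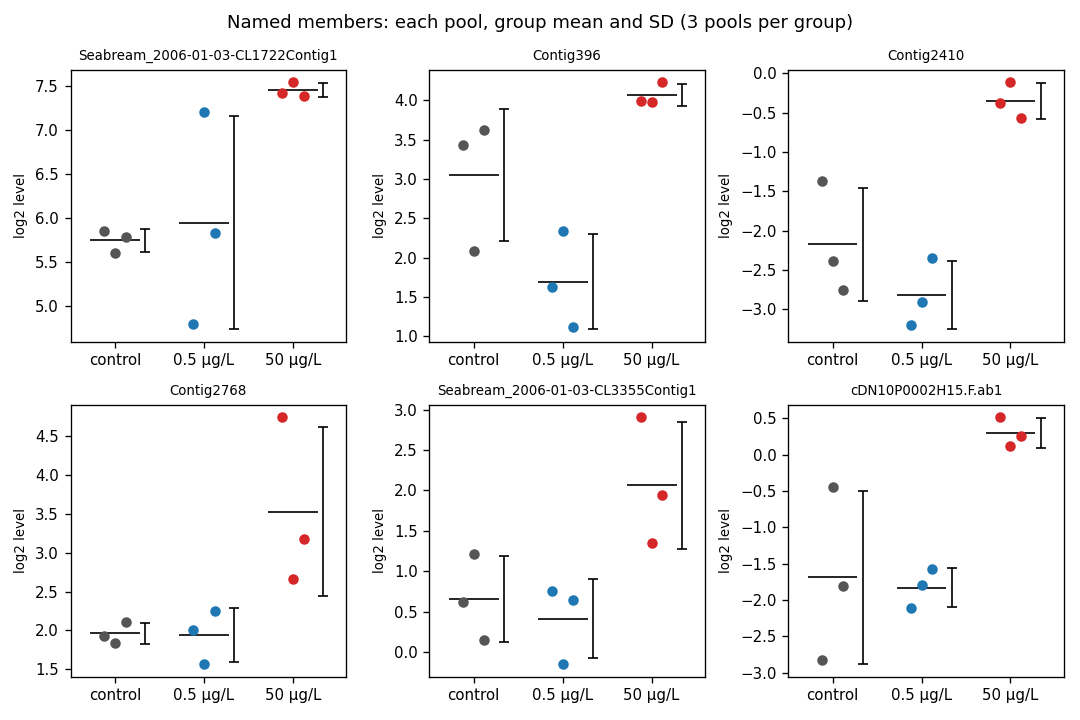
Points are the 3 pools of each group on the log2 scale for the 6 members named by rule, horizontal lines are group means and bars beside them are ± 1 SD over 3 pools. The left column holds the 2 leading members with several well measured probes, the middle column those with 1, and the right column those that no 0.5 µg/L array detected. The spread lies at 0.5 µg/L for Seabream_2006-01-03-CL1722Contig1 and at 50 µg/L for Contig2768.

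The 16 dim members included the largest difference of all 114, 2.14, in Contig2410. The controls had -1.37, -2.39 and -2.75, the 0.5 µg/L pools -3.20, -2.91 and -2.35, and the 50 µg/L pools -0.38, -0.11 and -0.57. All 3 pools at 50 µg/L were far above the rest, with the widest gap of any member (0.80 over control pool 1, the nearest). Its used probe was detected by 1 control array and not well above background at 0.5 µg/L. The lower bound of 50 µg/L over 0.5 µg/L was 2.82-fold, without the spread between pools. The size moved with the background correction: the difference was 0.69 with the normexp method and 3.58 in the authors' deposited values. Normexp was run with an offset of 50, which narrows differences of dim signals by construction. Its 2 unused probes differed by 1.97 and 0.99, both with all 50 µg/L pools on top, and were detected by 2 and 0 arrays. Nothing is read from them, since the contig passed the filter only through the 50 µg/L arrays.

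The clone cDN10P0002H15.F.ab1 had all 3 probes used, with differences of 1.63, 2.47 and 2.08. They were detected by 1, 1 and 0 control arrays, and each was used only through the 50 µg/L arrays. Nothing is read from their shared direction, since the filter asked each to be bright at 50 µg/L. Its controls stood at -2.82, -0.44 and -1.80, its 0.5 µg/L pools at -2.12, -1.80 and -1.58, and its 50 µg/L pools at 0.52, 0.12 and 0.25. The controls spread widely (-1.69 ± 1.20, SD, n = 3) around the 0.5 µg/L pools (-1.83 ± 0.27), and none of either group reached 50 µg/L (0.30 ± 0.20). No probe was well above background at 0.5 µg/L, against which the lower bound for 50 µg/L was 3.49-fold. The clone's difference from the other 6 pools was 0.80 with normexp and the same offset. In all, 11 members had no used probe detected by a 0.5 µg/L array, with lower bounds of 1.78-fold to 3.49-fold. In 8 of them the bound lay below the measured value. In the others the dim signals already lay at or above the lowest detected signal, so the value given is only the measured ratio. Contig3317 was named because it was the only member with no used probe detected by a control array either. It measured 2.18-fold higher at 50 µg/L than in controls. Its undetected control signals already lay at or above the lowest detected signal of their arrays. The bound was therefore only that measured ratio and set no further limit. Its 50 µg/L pools stood at 0.41, -0.59 and -1.19.

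The rule asked that the 0.5 µg/L pools all lie below the 50 µg/L pools and not all below the controls. Their mean also entered the minimum difference, so the place of 0.5 µg/L was partly fixed by the rule. In 113 of the 114 members the 0.5 µg/L and control pools overlapped, as they did in 87.7% of all transcripts, and the rule had already left out transcripts with all 0.5 µg/L pools below the controls. The 1 exception, Contig3161, named after its values were seen, had all 0.5 µg/L pools above all controls: its controls had -0.96, -0.69 and -0.66, its 0.5 µg/L pools -0.59, -0.60 and -0.49, and its 50 µg/L pools 0.15, -0.36 and -0.05. It was thus the only member whose 3 groups were ordered by concentration without overlap. The mean at 0.5 µg/L was below that of controls in 90 members and above it in 24 (21.1%, beside 47.3% of all transcripts). The median difference between 0.5 µg/L and controls was -0.18 (-1.35 to 0.86), and -0.02 over all transcripts. In 76 members (66.7%) it was smaller than the SD between pools, as in 72.5% of all transcripts. Limma called 0 of the 5191 transcripts (0%) between 0.5 µg/L and controls, and so none of the members. The smallest adjusted p among members was 0.710, and 13 members (11.4%) had an unadjusted p under 0.05, beside 295 of all transcripts (5.68%).

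**Figure D3:**
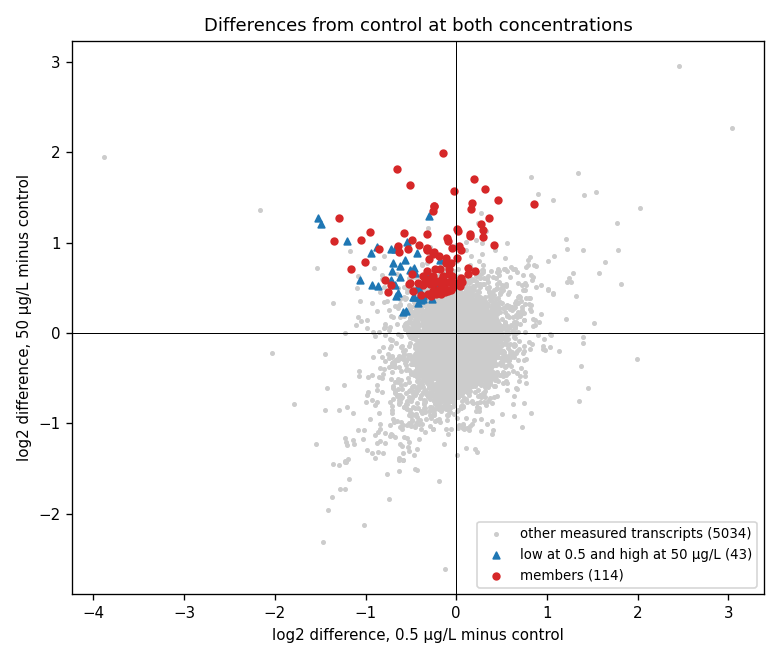
Each point is a transcript, with its log2 difference from controls at 0.5 µg/L across and at 50 µg/L upwards. The 114 members (circles) sit at 0.41 to 1.99 upwards and mostly left of 0 across (90 of 114). The 43 transcripts that were low at 0.5 µg/L and high at 50 µg/L (triangles) lie further left and run into the members without a gap, and both axes share the same 3 control pools.

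In the contrast that the rule itself used, 50 µg/L against the mean of both other groups, limma called 15 transcripts at an adjusted p under 0.05, all higher (0.289% of 5191). Only 4 of them were members, and the other 11 were all among the 43 that were also low at 0.5 µg/L. The 4 were Contig2410, Seabream_2006-01-03-CL5012Contig1, cDN09P0004I04.F.ab1 and Seabream_2006-01-03-CL3028Contig1, with differences of 2.14, 1.39, 1.21 and 0.97. Nothing is read from these calls, since the same values chose the members. The count of 15 did not hold without single pools. It was 0 without control pool 3, without 0.5 µg/L pool 1 or 3, or without 50 µg/L pool 2 or 3. It was 2 without 0.5 µg/L pool 2 and 3 without control pool 2, all higher. Without control pool 1 it was 32, of which 27 were higher and 5 lower, and without 50 µg/L pool 1 the 1 call was lower. It was also 0 with the slide as a block. Against the controls alone limma called 0 transcripts (0%) with a smallest adjusted p of 0.209, and 689 (13.3%) had an unadjusted p under 0.05. These included 98 of the members (86.0%). That share was largely fixed by the rule, which asked every 50 µg/L pool to lie above every control, and nothing is read from it. P-values here measure the spread between pools, which the labels do not describe as separate exposures.

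In all 55 members with more than 1 probe used, every probe was higher at 50 µg/L, and in 29 of them every probe had all 50 µg/L pools on top. The mean over these probes entered the rule, so their sign was partly fixed by it. Across all 2312 transcripts with more than 1 used probe, 79.4% had their probes agreeing in sign. The distance between the highest and the lowest probe difference had a median of 0.16 in members and 0.15 in all 2312.

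The probes too dim for the rule were not used to choose members, although they come from the same pools and arrays. There were 31 such probes, and 17 of them belonged to 10 members that passed the filter only through the 50 µg/L arrays. Of these 17, 16 had a higher mean at 50 µg/L, but so had 91.4% of the 70 unused probes of all transcripts that passed in that way, and nothing is read from them. The other 14 probes, of 12 members that also passed through another group, all had a higher mean at 50 µg/L, with a median difference of 0.50. Among the 2005 unused probes of all transcripts that passed likewise, 54.1% were higher, with a median difference of 0.05. Over the whole array, 67.0% of the 19513 unused probes were higher, with a median difference of 0.16. Of the 9280 used probes 39.9% were, with a median of -0.09. The 14 probes stand for transcripts already chosen as high in these same pools, so their direction is a description. Of the 14, 2 had all 50 µg/L pools on top, as had 0.948% of the 2005. Of the 31, 7 were detected by no array.

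**Figure D4:**
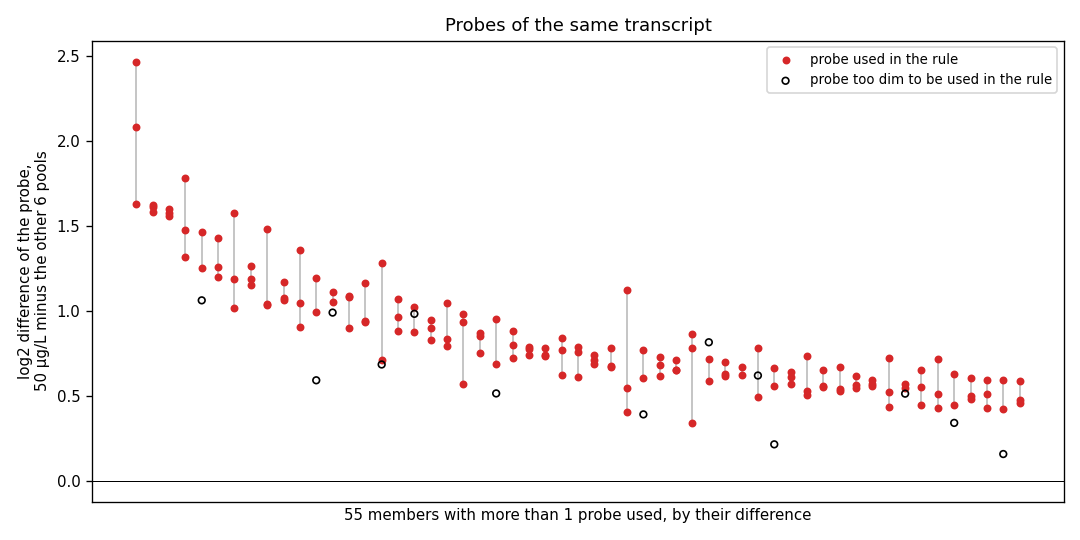
Each column is 1 of the 55 members with more than 1 used probe, ordered by its difference. Filled points are used probes, open points are probes too dim to be used, and the vertical axis is the log2 difference between the 50 µg/L pools and the other 6. All points lie above 0, with a median distance of 0.16 between the highest and lowest filled point of a member, and most open points lie below the filled ones of their own member.

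The median member stood at different levels in the pools of a group. Relative to the mean of the 6 other pools, it stood at 0.80, 0.68 and 0.93 in 50 µg/L pools 1, 2 and 3. The medians over all transcripts were -0.06, -0.19 and -0.03 in the same pools. The low place of pool 2 was thus partly shared by all transcripts. Pool 3 was the highest of the 50 µg/L pools in 75 members (65.8%, beside 41.1% of all transcripts). Pool 2 was the lowest in 76 of the 114 members, and in 2680 of all 5191 transcripts. Without pool 2 at 50 µg/L, 267 transcripts met the rule, 111 of the 114 among them. Among the others, the median member stood at 0.25, 0.01 and 0.03 in control pools 1 to 3 and at -0.12, 0.03 and -0.06 in 0.5 µg/L pools 1 to 3. Control pool 1 was thus nearest to the 50 µg/L pools, and it was the highest of the 6 in 51 members (44.7%), where it was so in 18.5% of all transcripts. Without it, the median difference was 0.85.

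The signal of an array relative to its added spike-in RNA moved with this pattern. The log2 75th percentile minus the mean of 6 spike-ins was -4.84, -4.95 and -4.78 in 50 µg/L pools 1 to 3, and -4.80 in control pool 1. In the other 5 pools it ran from -5.65 to -5.34, so that control pool 1 lay among the 50 µg/L pools in this measure. Its difference between 50 µg/L and the other 6 pools was 0.53 (exact two-sided permutation p = 0.0476 over 84 arrangements of 3 among 9 pools). That test was chosen after the values were seen. The members' mean at 50 µg/L was above their level in control pool 1 by a median of 0.53. The part of this ratio in the members' rise was not tested. Scaled to the spike-ins, all transcripts moved up together: the median difference was 1.34 for members and 0.41 for all transcripts. This scaling moves every difference by the same amount. That all 114 members stayed at least 0.5 above the latter median was therefore fixed in advance. Only 90 kept all 50 µg/L pools on top.

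**Figure D5:**
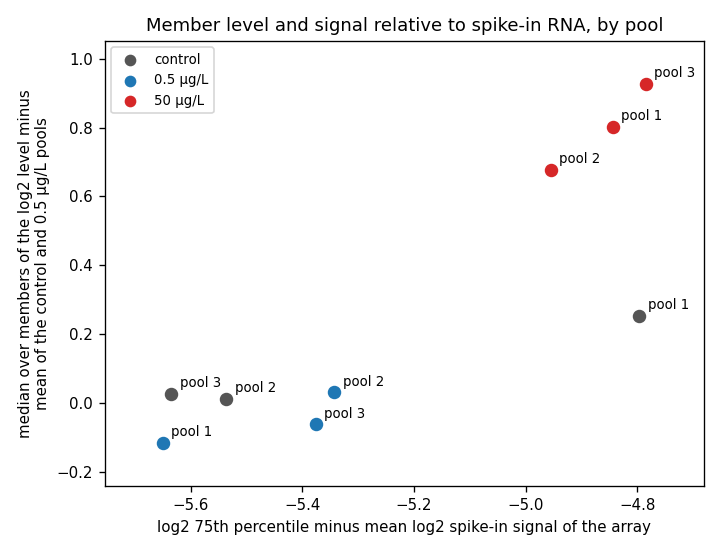
Each point is 1 pool. Across is the log2 75th percentile of its array minus that of 6 spike-ins (mean), and upwards is the median over 114 members of the log2 level minus the mean of the control and 0.5 µg/L pools. The 50 µg/L pools lie at the upper right (0.68 to 0.93), and control pool 1, at 0.25, shares their position across but not upwards.

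Each slide held 1 pool of each group, with the same pool number, so the difference can also be taken within slides. Against the mean of the other 2 pools of its slide, the 50 µg/L pool was higher by a median of 0.70 on slide 1, 0.75 on slide 2 and 0.99 on slide 3. Over all transcripts these medians were -0.01, -0.20 and -0.05. The sign on each slide follows from the choice of members. The 50 µg/L pools lay at array position 3 on every slide, controls at 1 and 0.5 µg/L at 2, so position, tank and concentration cannot be told apart. Spots of members were spread over the array, with 23.2%, 27.9%, 23.2% and 25.6% in 4 equal bands of rows.

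How far a member depends on the processing could be counted per transcript. Under 3 other scalings (quantile, median and spike-in), 81 of the 114 met the rule each time. Under all 10 processing alternatives 18 did. These 18 held 8 of the 26 members with several well measured probes, 7 of the 28 with 1, none of the 16 dim ones and 3 of the other 44. Seabream_2006-01-03-CL1722Contig1, Contig2768, Contig396 and Seabream_2006-01-03-CL3355Contig1 were among the 18. With each pool left out in turn, 40 of the 114 met the rule every time. Most losses came from the third condition, since with fewer pools the 0.5 µg/L group more easily lies wholly below controls (62 members), and 27 members fell under the minimum difference. Both sets of alternatives were met by 12 members.

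Compared with the 43 transcripts that met the same rule except for being low at 0.5 µg/L, the members had a similar median difference from the other 6 pools (0.81 against 0.90). Their median against controls was 0.68, where the 43 had 0.58, and against 0.5 µg/L it was 0.90, where the 43 had 1.18. The median percentile of control signal was 53.5 in the 43 and 34.5 in the members. In the mirror set of 175 transcripts lowered at 50 µg/L only, the median difference was -0.65, and 36% were contigs, against 61.4% of the members. These sets were chosen by the same values, and their differences were not tested.

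Outside the members, the transcripts whose pattern over the 9 pools was most like the members' mean pattern were the clone cDN01P0001E18.F.ab1 (Pearson r = 0.968) and Contig836 (r = 0.963). Contig836 had control levels of 1.70, 1.49 and 1.49, 0.5 µg/L levels of 0.99, 1.09 and 1.23, and 50 µg/L levels of 2.33, 2.04 and 2.31. Its 3 groups did not overlap, with 0.5 µg/L lowest, which kept it out of the members. The clone showed the same order, with means of -0.90 ± 0.37 (controls), -1.58 ± 0.09 (0.5 µg/L) and 0.03 ± 0.15 (50 µg/L; SD, n = 3). Its 1 probe was detected by 1 control array and by no 0.5 µg/L array, and was used only through the 50 µg/L arrays. The clone's low level at 0.5 µg/L is therefore a signal not well above background. In both Contig836 and the clone, control pool 1 was the highest control. The median member also stood highest there among the controls, so this partly follows from how they were picked.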

How the data were processed

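Per the file headers, each array's output came from Agilent Feature Extraction 10.7.3.1 and gives intensity per spot (linear, the background already removed from its processed signal) with other columns of flags, 0 or 1. The authors' deposited value table holds log2 values, equal to the log2 of the background-subtracted signal of each array (largest deviation 5.00e-09), with no scaling between arrays and column medians of 6.55 to 7.33. Of 45220 spots, 43803 were not controls, and 0 were saturated. Log2 processed signals were taken relative to the 75th percentile of each array, spots averaged per probe, and probes averaged per name. A probe was used (9280 were) if some group detected it on its 3 arrays, as defined above. Of the spots, 25.2% to 44.9% per array were well above background. Normexp was run on the median signal with an offset of 50, which narrows log2 differences between dim signals. Its log2 values and the deposited values were also taken relative to the 75th percentile of each array.

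Limma 3.58.1 (R 4.3.3, lmFit and eBayes, all 9 arrays, Benjamini-Hochberg over 5191 names) gave adjusted p-values. Its use was also tested on simulated data, with independent noise of equal spread for all names and no effect of slide or array position. That run tests the code, and cannot show that the p-values hold for these arrays. Lower bounds replace, on each array, a dim probe's signal by the lowest signal of any detected probe where that is higher. Dim signals above it stay as measured, so it is not a detection limit for each probe. Named are the 2 members with the largest difference in each of 3 sets, those nearest the limit and the 2 most alike outside. The members, lists and tests were chosen with earlier results of these data known. The lists of pathway and marker genes could not be applied, since 0 names matched.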

Additional observations from a re-analysis of the deposited data

How the results depend on the processing

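The number of arrays limits precision, and dim spots are limited by background. The number of members, 114, was 248 with median scaling, 385 with spike-in scaling, 51 with normexp, 65 with the deposited values and 72 with probes detected by all 9 arrays. It was 176 with a minimum difference of 0.25, 38 with 1, and 176 with the order asked within slides only. Leaving out 1 pool gave 93 to 267. The members' median difference, 0.81, was 0.95 with median scaling, 1.34 with spike-in scaling, 0.52 with normexp and 0.67 with probes detected by all 9 arrays (69 members), and 0.76 to 0.85 with a pool left out. All 114 stayed higher at 50 µg/L under each setting that measured them, a sign that their choice largely fixed. All 50 µg/L pools stayed on top in 110 of them with quantile scaling and 90 with spike-in scaling. With the deposited values, taken relative to the 75th percentile of each array, 69 kept that order, and with normexp 56. The 15 calls of 50 µg/L against both other groups (all higher) became 75 with median scaling (74 higher), 274 with spike-in scaling and 9 with the median over probes (all higher in both), and 177 at an adjusted p under 0.10, of which 101 were higher and 76 lower. They became 0 with normexp, the deposited values, no dim filter, the brightest probe, probes as the unit, a replicate block or a random block, and 0 to 32 with a pool left out. Against controls, limma's 0 calls became 1, higher, with spike-in scaling and 0 to 1 with a pool left out (1, lower, without 50 µg/L pool 1). For 0.5 µg/L against controls they stayed 0 under each setting run. Same-numbered pools, which shared a slide, correlated at -0.158 to 0.131 in their deviations from the group means. Whether the numbers pair the pools was not tested, and the block is given only here and beside the 15 calls. Of 187 values of the named transcripts, 176 moved by less than the SD between pools, 11 by more and 0 changed sign. Median and spike-in scaling subtract 1 value per array, so they moved every transcript's difference by the same amount. The offset of 50 in normexp narrows differences between dim signals by construction. Apart from these and from what fewer probes or pools bring by construction, the cause of the changes was not tested.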
